A study of Mus musculus with 6 samples.

Results

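Genes of protein folding, translocation and secretion in the endoplasmic reticulum (ER) were examined in splenic B cells of mice that express p80HT, a truncated human NF-κB2 protein. The 39 genes were chosen by gene symbol as named parts of the ER secretory machinery, and 38 of them could be measured among the 19938 genes with a probeset (the set of oligonucleotides that reports 1 transcript) of their own. Sec61g, a small subunit of the translocation channel, shared its probeset with other symbols and was not analysed here. Each gene was read from its single-symbol probeset with the highest mean over the 6 arrays. The question was whether B cells of p80HT mice carried signs of a secretory programme.

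B cells of 3 p80HT transgenic mice were compared with those of 3 wild-type (WT) littermates, with 1 microarray per mouse and no pooling. The p80HT animals carry the human p80HT coding sequence under the H-2Kb promoter and the immunoglobulin μ enhancer, which drive it in T and B lymphocytes, on a mixed C57BL/6J and SJL/J background, and those profiled had a monoclonal immunoglobulin in serum. All mice were about a year old, and the cells were pulled from spleen with magnetic beads against B220, a surface protein that plasma cells often carry at low levels. RNA was hybridised to Mouse Gene 1.0 ST arrays, and all values below are log2 signals after RMA, the authors' normalisation. The number of arrays limits the precision, and an exact permutation test of 3 against 3 mice could not go below p = 0.10.

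Proteins bound for the cell surface or for secretion enter the ER through the Sec61 channel, lose their signal peptide, are glycosylated, and are folded by Hsp70-type chaperones, lectin chaperones and disulfide isomerases. Chains that fail to fold are drawn back to the cytosol and degraded. When unfolded chains build up, the membrane sensors IRE1 (gene Ern1), ATF6 and PERK (gene Eif2ak3) switch on the genes of this machinery, and IRE1 does so by splicing the mRNA of the transcription factor XBP1. A B cell that becomes an antibody-secreting plasma cell raises most of this machinery with XBP1, which makes the genes a readout of secretory differentiation.

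Many of these genes carry the ER stress element (ERSE), in which NF-Y binds CCAAT and ATF6 or XBP1 binds CCACG after a spacer. RefSeq promoter windows of 300 bases, from 250 before to 50 after the transcription start (build GRCm38.p6), were available for 30 of the 39 genes. These 30 genes had 35 windows. Motif shares of the 30 count genes, whereas those of all genes count windows, so the units differ. The ERSE was searched as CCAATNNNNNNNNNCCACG on both strands, and 9 of the 30 genes (30.0%) held it, against 39 of 32851 windows of all genes (0.119%). The stretches below are shown because they match this element in chaperone, isomerase and degradation genes whose levels follow. Each is written 5′ to 3′ on the gene's own strand with the CCAAT and CCACG parts in capitals. These parts read as CGTGG and ATTGG where the element lies in the opposite orientation.
Hspa5 (chr2:34772011-34772057, plus strand): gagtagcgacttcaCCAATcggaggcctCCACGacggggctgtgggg
Hsp90b1, distal copy (chr10:86705624-86705670, minus strand): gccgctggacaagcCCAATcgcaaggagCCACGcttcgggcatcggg
Hsp90b1, proximal copy (chr10:86705519-86705565, minus strand): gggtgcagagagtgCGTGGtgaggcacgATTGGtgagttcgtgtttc
Dnajc3 (chr14:118937813-118937859, plus strand): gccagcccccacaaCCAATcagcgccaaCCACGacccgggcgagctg
Calr (chr8:84847061-84847107, minus strand): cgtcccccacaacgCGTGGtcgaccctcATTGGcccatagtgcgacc
Canx (chr11:50325786-50325832, minus strand): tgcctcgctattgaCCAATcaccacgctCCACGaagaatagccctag
Pdia6 (chr12:17266477-17266523, plus strand): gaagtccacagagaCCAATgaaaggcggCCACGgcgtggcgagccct
Creld2 (chr15:88819506-88819552, plus strand): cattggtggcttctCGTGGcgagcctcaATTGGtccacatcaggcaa
Derl3 (chr10:75893228-75893274, plus strand): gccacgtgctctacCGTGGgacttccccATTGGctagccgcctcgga
Syvn1 (chr19:6046518-6046564, plus strand): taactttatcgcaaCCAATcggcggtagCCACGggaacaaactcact

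Every element shown lay upstream of its transcription start. The last base of the Hspa5 element was 47 bases from the start, that of Syvn1 was 26 bases away, and the distal copy of Hsp90b1 was 194 bases away. A match to these letters is a description of the window and not evidence of binding.

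A shorter related element, ERSE-II (ATTGGNCCACG on either strand), was added after the data were seen and was present in the windows of Herpud1 and Dnajb11, against 0.0365% of all windows. The core bound by spliced XBP1 (ACGTGG, searched on both strands) was in 11 of the 30 genes (36.7%), against 8.31% of all windows, and in Herpud1 it overlapped the ERSE-II by all but 1 of its bases. The Herpud1 element and the bases upstream of Dnajb9 are shown because Herpud1 carries both motifs and because Dnajb9 had the lowest fold change of the 38 genes and carries the core without an ERSE. Capitals mark the ERSE-II parts in Herpud1 and the XBP1 core, in antisense orientation, in Dnajb9.
Herpud1 (chr8:94386363-94386401, plus strand): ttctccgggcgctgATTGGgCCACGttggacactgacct
Dnajb9 (chr12:44210069-44210248, minus strand): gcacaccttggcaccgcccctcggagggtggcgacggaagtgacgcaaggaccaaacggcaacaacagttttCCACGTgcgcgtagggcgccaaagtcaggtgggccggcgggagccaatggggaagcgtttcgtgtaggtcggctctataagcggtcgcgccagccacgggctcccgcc

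One library stood apart from the others. The p80HT replicate 3 array correlated with the other 5 at Pearson r of 0.914 to 0.925 over genes, whereas the other 5 correlated with each other at 0.981 to 0.995. It was the highest of the 6 arrays for 13 of 15 salivary and lacrimal gland markers, with a summed signal of 78490 against 3846 to 4635 on the other p80HT arrays and 2629 to 4543 on the WT arrays. It was also highest for 8 of 9 fibroblast, 10 of 11 T cell and 8 of 11 macrophage markers. It was lowest for all 11 B cell markers, although Ms4a1 (the B cell surface protein CD20) was still 11.77 there. Of all genes, 27.8% were highest and 48.1% lowest on this array. On the other 5 arrays Ms4a1 was 12.88 to 13.12. Secretory cells of any tissue use the same ER machinery, and the main results are given with and without this array. In these bulk samples, fewer cells of a type and less RNA per cell cannot be told apart.

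None of the 38 ER genes was called between p80HT and WT B cells. A call required at least a 1.5-fold change and an unadjusted p under 0.01 in limma (linear models with variance shared across genes), the fold and p limits of the study, and 436 of all 19938 genes met it (2.19%), of which 243 were higher (1.22%) and 193 lower (0.968%) in p80HT cells. Centring each array on its median turned that split to 183 higher and 342 lower. After Benjamini-Hochberg adjustment at 0.05, 11 genes of the whole array passed (0.0552%), and none of the 38. At an unadjusted p under 0.05, 3 of the 38 passed, against 10.2% of all genes: Edem1 was higher (background 4.28%), and Dnajb9 and Hspa5 were lower in p80HT cells (background 5.96%). A per-gene analysis of variance without shared variance also called none of the 38.

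The same count was 0 when p80HT replicate 3 was left out, although 691 of all genes (3.47%) were then called on the 5 remaining arrays, 401 of them higher (2.01%) and 290 lower (1.45%). Of the 38, Dnajb9 alone passed the adjusted threshold on the 5 arrays, where 4.67% of all genes did so. At an unadjusted p under 0.05 there were 10 of the 38, against 21.6% of all genes. Edem1 and Atf6 were higher (background 9.84%), and Dnajb9, Derl2, Pdia6, Pdia3, Spcs2, Hspa5, Spcs3 and Hyou1 were lower (background 11.7%).

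The fitted differences were small. Over all arrays the 38 log2 fold changes (p80HT minus WT) ran from -0.83 to 0.46 with a median of 0.07, against a median of -0.02 over all genes, and 23 were above 0 and 15 below. With the 5 arrays the median was -0.01, against 0.04 over all genes, and 16 were above 0 and 22 below. The sign of the genes' median therefore depended on 1 mouse. It was also below 0 after centring each array on its median (-0.03, against -0.12 over all genes) and after weighting the arrays by their quality (-0.12, against 0.03 over all genes). The weighted fit rested mostly on 1 mouse of each group. The weights were 4.23 on p80HT replicate 1 and 6.88 on WT replicate 3, against 0.0687 to 1.02 on the other arrays.

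The 95% interval of the fold change, not adjusted for the number of genes, lay below a 1.5-fold rise for 22 of the 38 genes (57.9%) and above a 1.5-fold fall for 30 (78.9%), and for 18 (47.4%) it lay within 1.5-fold in both directions, against 77.0%, 74.7% and 55.4% of all genes. With p80HT replicate 3 left out, these numbers were 35, 33 and 30 of the 38, against 89.7%, 90.3% and 80.1% of all genes, so the ER genes lay near the background. The 3 genes whose interval still reached a 1.5-fold rise were Edem1, Txndc5 and Derl3. Those whose interval still reached a 1.5-fold fall were Dnajb9, Pdia3, Pdia6, Derl2 and Spcs3.

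**Figure D1:**
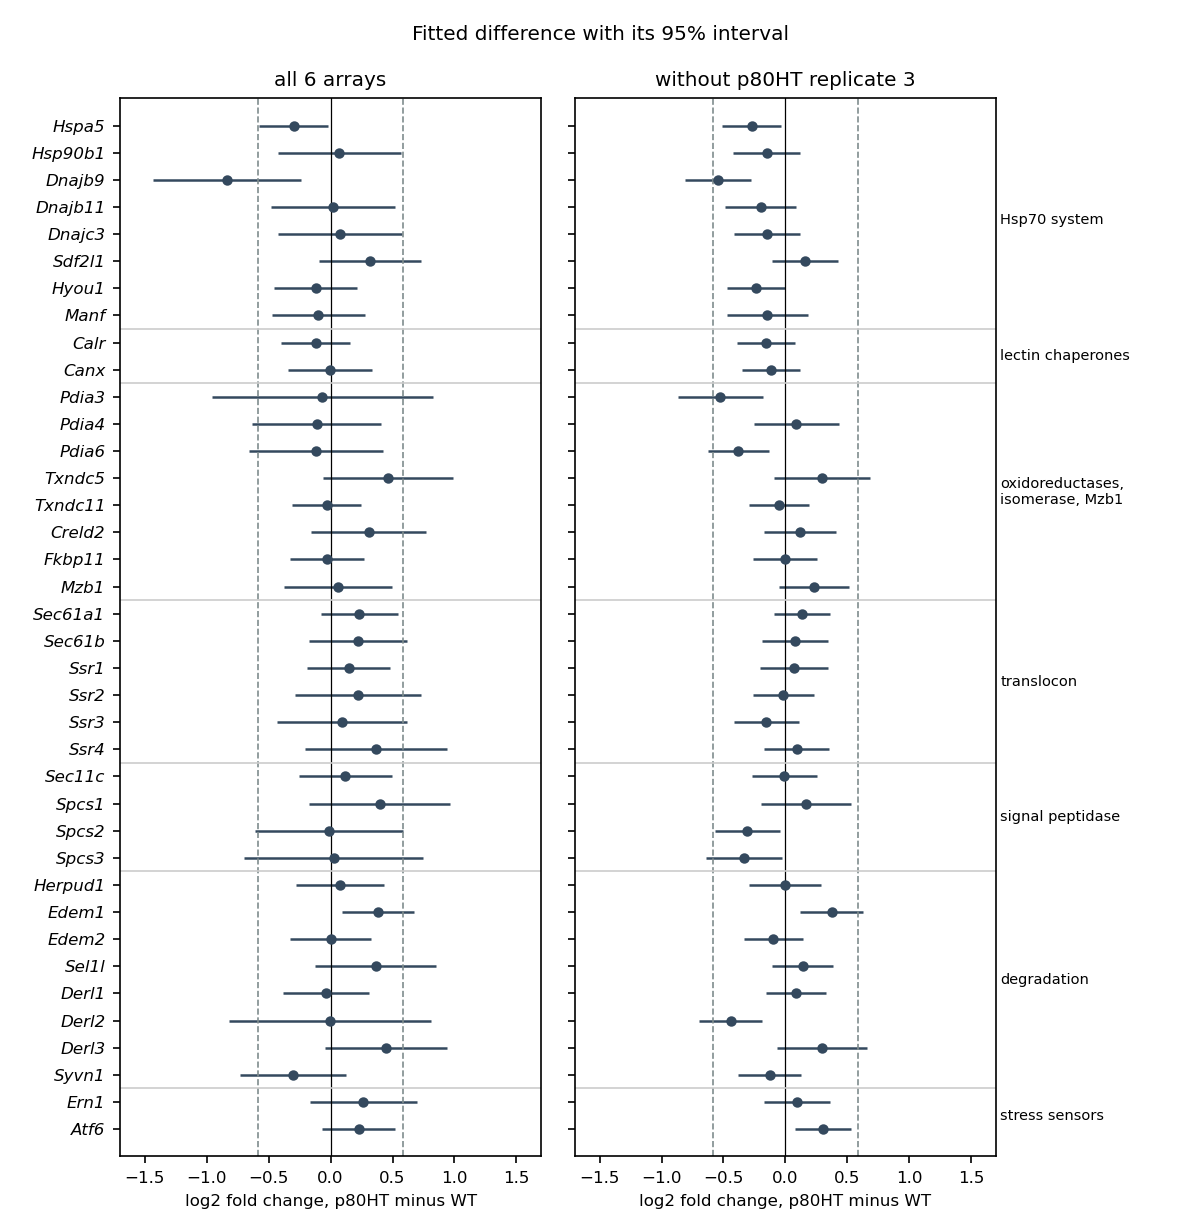
Log2 fold change (p80HT minus WT, x axis) of each of the 38 ER genes with its 95% interval from limma, over all 6 arrays on the left and without p80HT replicate 3 on the right; dashed lines mark 1.5-fold in either direction. On the left 18 intervals lie wholly between the dashed lines and on the right 30 do, and the Dnajb9 point is the farthest below 0 in both panels.

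The 3 p80HT mice did not share 1 pattern. On p80HT replicate 3, 28 of the 38 genes lay above all 3 WT arrays (73.7%), against 30.6% of all genes, and 6 lay below them, against 52.9% of all genes. It was the highest of the 6 arrays for 27 of the 38 genes (27.8% of all genes) and the lowest for 6 (48.1% of all genes). On replicate 1 the order was the other way, with 4 genes above the WT range, against 28.3% of all genes, and 17 below it, against 27.6%. Replicate 2 had 12 above and 12 below, against 35.2% and 30.1% of all genes. The median distance of the 38 genes from their WT means was -0.09, 0.04 and 0.42 on p80HT replicates 1, 2 and 3, and that of all genes was 0.02, 0.04 and -0.16.

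**Figure D2:**
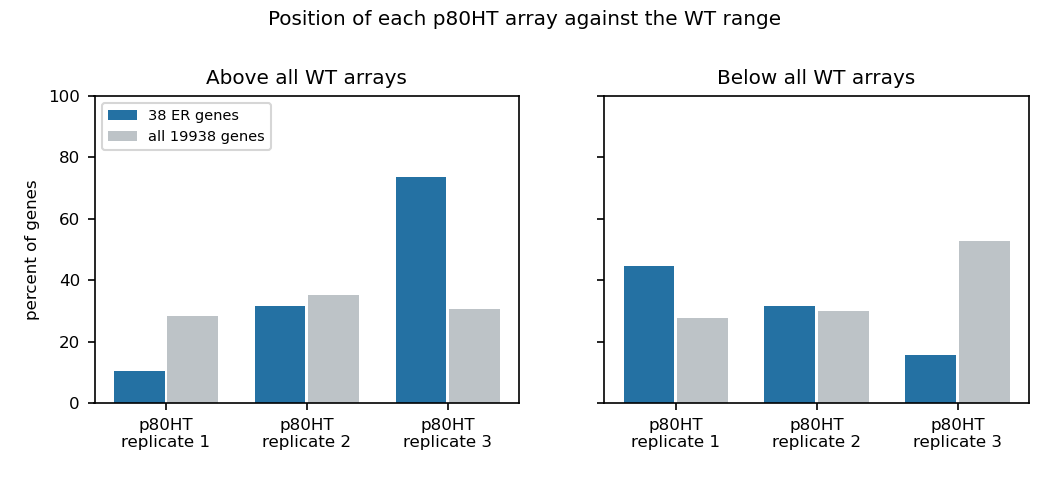
Percent of genes (y axis) whose signal lay above all 3 WT arrays (left) or below all of them (right) on each p80HT array, for the 38 ER genes and for all 19938 genes. The ER genes exceed all genes above the WT range on replicate 3 (73.7% against 30.6%) and below it on replicate 1 (44.7% against 27.6%).

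The spread within p80HT mice exceeded that within WT mice for 33 of the 38 genes (86.8%), as it did for 79.5% of all genes. The median SD of the 38 was 0.316 in p80HT mice and 0.128 in WT mice (n = 3 each). Between p80HT replicates 1 and 2 the median difference was 0.114. The widest p80HT spread was that of Pdia3 (SD 0.813) and the narrowest that of Edem1 (SD 0.0231).

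**Figure D3:**
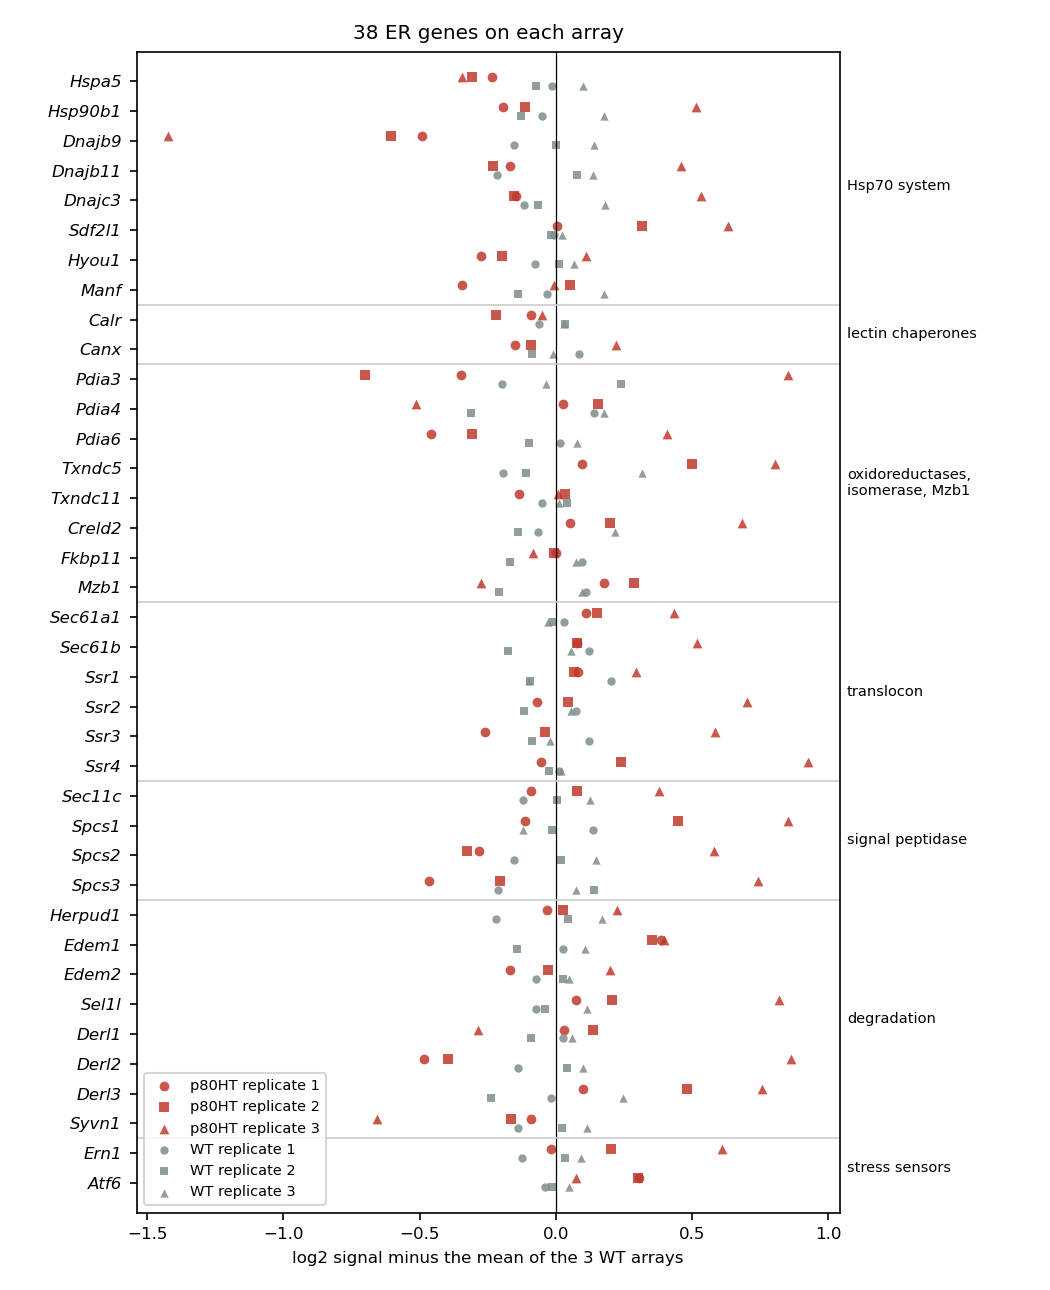
Signal of each ER gene on each array as the log2 difference from the mean of the 3 WT arrays (x axis), with p80HT arrays in red above WT arrays in grey and genes grouped by role. The red triangles of p80HT replicate 3 are the highest point for 27 of 38 genes and the lowest for 6, among them Dnajb9, Syvn1 and Pdia4.

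Among the 8 genes of the Hsp70 system, none passed and the median log2 fold change was -0.04, or -0.18 with p80HT replicate 3 left out, where 7 of the 8 were below 0. Hspa5 encodes BiP, the main Hsp70 chaperone of the ER and the protein that holds the stress sensors inactive. It read 11.63, 11.55 and 11.52 on the p80HT arrays, against 11.84, 11.79 and 11.96 on the WT arrays. All 3 p80HT values lay below all WT values, and p80HT replicate 3 did not stand apart. The log2 fold change was -0.30 ± 0.12 (SE; 1.23-fold lower; 95% interval -0.58 to -0.02), with adjusted p = 0.464 in limma.

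Dnajb9 encodes ERdj4, a co-chaperone of BiP that is induced by XBP1 and that acts on IRE1 and on degradation. It read 11.94, 11.83 and 11.01 in p80HT cells, against 12.28, 12.43 and 12.57 in WT cells. The groups did not overlap, and p80HT replicate 3 was the lowest of the 6. Its log2 fold change was -0.83 ± 0.25 (SE; 1.78-fold lower; 95% interval -1.43 to -0.24), and with adjusted p = 0.352 in limma, and an unadjusted p just above 0.01, it missed both thresholds. On the 5 arrays it fell by 0.54 ± 0.12 on the log2 scale (SE; 1.46-fold; adjusted p = 0.0336 in limma), and over all settings run its adjusted p ranged from 0.000569 to 1.0. It was called lower when p80HT replicate 1 was left out (log2 fold change -1.01) and under 4 other settings, and its log2 fold change lay between -1.01 and -0.48 over all settings run. Of the 38 genes, 2 lay below all WT arrays on all p80HT arrays, Hspa5 and Dnajb9, against 11.9% of all genes.

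The other co-chaperones and cofactors did not pass. Hsp90b1, which encodes the ER Hsp90 protein GRP94, read 11.92, 12.00 and 12.62 in p80HT cells, against 12.06, 11.98 and 12.29 in WT cells, so that only p80HT replicate 3 lay above the WT range. Dnajc3 (the co-chaperone p58IPK) and Dnajb11 (ERdj3) were likewise above the WT range on p80HT replicate 3 alone, with p80HT replicates 1 and 2 at 10.18 for Dnajc3 and replicate 3 at 10.86, against 10.21 to 10.51 in WT cells. Hyou1, a nucleotide exchange factor of BiP, had a log2 fold change of -0.12, or -0.24 on the 5 arrays. Sdf2l1, a BiP-associated protein, was 10.18, 10.50 and 10.81 in p80HT cells and 10.16 to 10.20 in WT cells (log2 fold change 0.32 ± 0.17, SE, adjusted p = 0.580 in limma). Manf, a secreted ER-resident factor, had a log2 fold change of -0.10.

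The lectin chaperones hold glycoproteins while they fold. Calr (calreticulin) read 12.13, 12.00 and 12.17 in p80HT cells, against 12.16, 12.25 and 12.25 in WT cells. Canx (calnexin) read 12.58, 12.64 and 12.95 in p80HT cells, against 12.82, 12.64 and 12.72 in WT cells. Their log2 fold changes were -0.12 ± 0.12 and -0.00 ± 0.14 (SE), neither passed, and both intervals lay inside 1.5-fold in either direction.

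The 8 oxidoreductases, isomerases and the plasma-cell co-chaperone Mzb1 gave a median log2 fold change of -0.03 (0.04 on the 5 arrays), and none passed. Txndc5, a disulfide isomerase abundant in plasma cells, had the highest log2 fold change of the 38 genes. It read 10.88, 11.28 and 11.58 in p80HT cells, against 10.59, 10.67 and 11.10 in WT cells. The groups overlapped through p80HT replicate 1, and the difference of 0.46 ± 0.22 (SE; 1.38-fold; limma adjusted p = 0.534) was 0.29 ± 0.17 on the 5 arrays.

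Creld2, a stress-induced disulfide isomerase, read 10.86, 11.01 and 11.49 in p80HT cells, against 10.75, 10.67 and 11.03 in WT cells (log2 fold change 0.31 ± 0.20, SE). Mzb1, which helps assemble IgM in marginal zone B cells and plasma cells, read 12.63, 12.74 and 12.18 in p80HT cells, against 12.56, 12.24 and 12.55 in WT cells. It was lowest on p80HT replicate 3, where the B cell markers were also lowest, and their part in this value was not tested. Its log2 fold change was 0.06 ± 0.19 (SE), or 0.23 ± 0.13 on the 5 arrays.

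Pdia3 (ERp57, the isomerase that works with calnexin and calreticulin) showed how far 1 mouse could move a value, and was singled out after its values were seen. It read 10.30, 9.95 and 11.50 in p80HT cells, against 10.45, 10.89 and 10.61 in WT cells. Replicates 1 and 2 lay below every WT array and replicate 3 above. The log2 fold change was -0.07 ± 0.38 (SE) over all arrays and -0.53 ± 0.15 on the 5 arrays (limma adjusted p = 0.0889). Pdia6 also lay below the WT range on p80HT replicates 1 and 2 and above it on replicate 3, with log2 fold changes of -0.12 over all arrays and -0.38 on the 5 arrays. Pdia4, Txndc11 and Fkbp11, a prolyl isomerase of secretory cells, had log2 fold changes of -0.11, -0.03 and -0.03.

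All 6 measured translocon genes had log2 fold changes above 0, between 0.09 and 0.37 with a median of 0.22, and none passed. All 6 were highest on p80HT replicate 3, against 27.8% of all genes. On the 5 arrays the median of the 6 was 0.07, with 2 of the 6 below 0. Median centring left 5 of the 6 above 0, and array weights 4. Sec61a1, the channel-forming subunit, read 11.49, 11.53 and 11.81 in p80HT cells, against 11.41, 11.37 and 11.35 in WT cells. The p80HT values lay above all WT values, and the log2 fold change was 0.23 ± 0.13 (SE; limma adjusted p = 0.596), or 0.13 ± 0.10 on the 5 arrays. Ssr4, a subunit of the translocon-associated TRAP complex, read 10.89, 11.18 and 11.87 in p80HT cells, against 10.95, 10.92 and 10.96 in WT cells. The WT arrays lay within a narrow band, replicate 1 lay below it and replicates 2 and 3 above, and its log2 fold change of 0.37 ± 0.24 (SE) became 0.09 ± 0.12 on the 5 arrays.

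Ssr1, Ssr2 and Ssr3, the other TRAP subunits, had log2 fold changes of 0.15, 0.22 and 0.09, and Sec61b one of 0.22. Sec61b had other probesets besides the one used, and these gave mean differences of 0.24 and 0.11. With p80HT replicate 3 left out they gave 0.03 and -0.05, against 0.08 for the probeset used. A second Pdia4 probeset gave a mean difference of -0.06. With p80HT replicate 3 left out it gave -0.11, against 0.09 for the probeset used. Without that array the signs of Sec61b and Pdia4 therefore depended on the probeset chosen. The second probeset of Dnajc3 held the same values as the first.

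The 4 signal peptidase genes, whose complex cuts off the signal peptide, were likewise all highest on p80HT replicate 3 (27.8% of all genes). Their median log2 fold change was 0.07, and it was -0.16 on the 5 arrays, -0.02 after median centring and -0.27 with array weights. Spcs1 read 8.84, 9.40 and 9.80 in p80HT cells, against 9.08, 8.94 and 8.83 in WT cells (log2 fold change 0.40 ± 0.24, SE, limma adjusted p = 0.622). Sec11c, a catalytic subunit, read 10.77, 10.94 and 11.24 in p80HT cells, against 10.74, 10.86 and 10.98 in WT cells (0.12 ± 0.16, SE). Spcs2 and Spcs3 had log2 fold changes of -0.01 and 0.02 over all arrays, and -0.31 and -0.34 on the 5 arrays, so that Spcs3 changed sign.

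The 8 genes of ER-associated degradation had a median log2 fold change of 0.04 with or without p80HT replicate 3, but -0.05 after median centring, and none passed. Edem1, which draws misfolded glycoproteins out of the folding cycle, was the most even of the 38 genes among p80HT mice. It read 12.16, 12.12 and 12.17 in p80HT cells, against 11.80, 11.63 and 11.88 in WT cells. The groups did not overlap, and p80HT replicate 3 lay with the other 2. The log2 fold change was 0.38 ± 0.12 (SE; 1.30-fold; 95% interval 0.09 to 0.67; limma adjusted p = 0.380), and 0.37 ± 0.11 on the 5 arrays (adjusted p = 0.0973). Over all settings run, its adjusted p ranged from 0.0101 to 1.0 and its log2 fold change from 0.29 to 0.47.

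Derl3, a channel component found in secretory cells, read 10.53, 10.91 and 11.19 in p80HT cells, against 10.41, 10.19 and 10.68 in WT cells. The groups overlapped, and the log2 fold change was 0.45 ± 0.21 (SE; 1.37-fold; limma adjusted p = 0.520). Its relative Derl2 read 8.34, 8.43 and 9.69 in p80HT cells, against 8.69, 8.87 and 8.93 in WT cells. As for Pdia3, replicates 1 and 2 lay below the WT range and replicate 3 above it, with log2 fold changes of -0.01 ± 0.35 (SE) over all arrays and -0.44 ± 0.11 on the 5 arrays (limma adjusted p = 0.0595).

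Syvn1 (the ubiquitin ligase HRD1) read 11.05, 10.98 and 10.48 in p80HT cells, against 11.00, 11.16 and 11.26 in WT cells. Its partner Sel1l read 10.27, 10.41 and 11.02 in p80HT cells, against 10.13, 10.16 and 10.32 in WT cells. The log2 fold changes were -0.30 ± 0.18 and 0.36 ± 0.21 (SE), with p80HT replicate 3 lowest for Syvn1 and highest for Sel1l. Herpud1, a stress-induced scaffold of this ligase, and Edem2 and Derl1 had log2 fold changes of 0.07, 0.00 and -0.04.

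The stress sensors were measured through Atf6 and Ern1. Atf6 read 11.44, 11.43 and 11.20 in p80HT cells, against 11.09, 11.12 and 11.18 in WT cells. All p80HT values lay above all WT values, replicate 3 by the least, and the log2 fold change was 0.23 ± 0.13 (SE; limma adjusted p = 0.579) and 0.31 ± 0.10 on the 5 arrays (adjusted p = 0.123). Ern1 read 8.91, 9.13 and 9.54 in p80HT cells, against 8.80, 8.96 and 9.02 in WT cells (0.26 ± 0.18, SE). Of the 38 genes, 3 lay above all WT arrays on all p80HT arrays, Edem1, Atf6 and Sec61a1, against 8.86% of all genes. With Hspa5 and Dnajb9 this made 5 genes whose groups did not overlap, against 20.8% of all genes. On the 5 arrays 4 lay above and 10 below, against 19.7% and 20.5% of all genes, or 40.2% in either direction. The arrays measure transcript levels, so the processing of ATF6 and the splicing of Xbp1 were not read.

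None of the genes with the ERSE shown above passed. The 9 had a median log2 fold change of -0.00 (-0.30 to 0.45) with 5 below 0, and the 20 measured genes whose window lacked it had a median of 0.08 with 7 below 0. On the 5 arrays the medians were -0.15 and 0.03, with 7 and 10 genes below 0. The 11 genes with the XBP1 core had a median of 0.08, and -0.00 on the 5 arrays, where 7 were below 0. No test was run between these groups.

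Other genes of the pathway, 72 measured of 75 listed, gave a similar count. These comprised further folding enzymes, signal recognition particle and translocation genes, the oligosaccharyltransferase, degradation factors, vesicle transport genes and stress regulators. None was called higher and 1 was called lower, against 1.22% and 0.968% of all genes, and the median log2 fold change was 0.04. On the 5 arrays the median was -0.06, with 0 called higher and 2 lower, against 2.01% and 1.45% of all genes, and these counts lie near the background. The 10 oligosaccharyltransferase genes, which attach N-glycans, had a median log2 fold change of 0.12, or 0.00 on the 5 arrays, and none was called. Serp1 (a translocon stabiliser) and Sec62 (a translocation factor) had log2 fold changes of -0.39 ± 0.12 and -0.48 ± 0.14 (SE), and neither passed.

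The 1 gene called lower was Ddit3 (CHOP, the transcription factor induced by PERK and ATF4 in sustained stress). It read 9.67, 9.46 and 8.58 in p80HT cells, against 10.67, 10.75 and 10.85 in WT cells, and it fell by 1.52 ± 0.27 on the log2 scale (SE; adjusted p = 0.154 in limma, and 0.00067 on the 5 arrays). Ppp1r15a (GADD34, a phosphatase subunit of the same branch) read 10.50, 10.40 and 7.74 in p80HT cells, against 10.73, 11.27 and 11.14 in WT cells, and was called lower with p80HT replicate 3 left out but not over all arrays. Atf4 and Eif2ak3 had log2 fold changes of -0.50 ± 0.19 and -0.89 ± 0.39 (SE), and did not pass.

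Several transport genes shared the pattern of p80HT replicate 3. Kdelr3, a receptor that returns chaperones from the Golgi, read 6.72, 6.87 and 9.02 in p80HT cells, against 6.55 to 6.94 in WT cells. Lman1 (a cargo receptor for glycoproteins) was 11.46 on that array, against 10.36 to 10.55 on the other p80HT arrays and 10.36 to 10.50 on the WT arrays. Of the 72 genes, 45 were highest on it, against 27.8% of all genes. The gland, fibroblast, T cell and macrophage markers were high on the same array, and their part in these ER values was not tested.

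Plasma cell genes gave the closest comparison, since that cell type has the fullest secretory machinery. Of 10 listed genes, 3 rose, against 1.22% of all genes, and none was called lower, against 0.968%. The p80HT arrays lay below all WT arrays for 2 of the 10, Irf4 and Tnfrsf13b (the receptor TACI), against 11.9% of all genes. Their log2 fold changes were -0.78 and -0.49, or -0.21 and -0.12 on the 5 arrays, and neither passed. Prdm1 (BLIMP-1, the repressor that drives plasma cell differentiation) read 9.48, 9.21 and 9.75 in p80HT cells, against 8.70, 8.72 and 8.62 in WT cells (log2 fold change 0.80 ± 0.16, SE; limma adjusted p = 0.181). Cd28 and Cd27, which are also T cell genes, rose by 0.92 and 1.69 on the log2 scale, with adjusted p = 0.0827 and 0.285 in limma. T cell markers moved with them, 3 of 11 called higher (8 of 11 on the 5 arrays), against 1.22% and 2.01% of all genes. The summed signal of the T cell markers was 12450 to 26770 in p80HT cells and 7775 to 9388 in WT cells. The part of T cells in these 3 genes was not tested.

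Xbp1 read 10.88, 11.34 and 11.91 in p80HT cells, against 10.97, 10.96 and 11.22 in WT cells (log2 fold change 0.33 ± 0.26, SE), and the groups overlapped. On the 5 arrays the difference was 0.06. Jchain, the immunoglobulin joining chain, read 12.16, 12.72 and 12.58 in p80HT cells, against 12.41, 12.49 and 12.80 in WT cells. Sdc1 (the plasma cell surface protein CD138) read 8.36, 9.02 and 9.29 in p80HT cells, against 8.44, 8.59 and 8.87 in WT cells. Irf4, needed for plasma cells, read 12.08, 12.05 and 10.34 in p80HT cells, against 12.18, 12.28 and 12.35 in WT cells. None of these 4 passed the test.

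**Figure D4:**
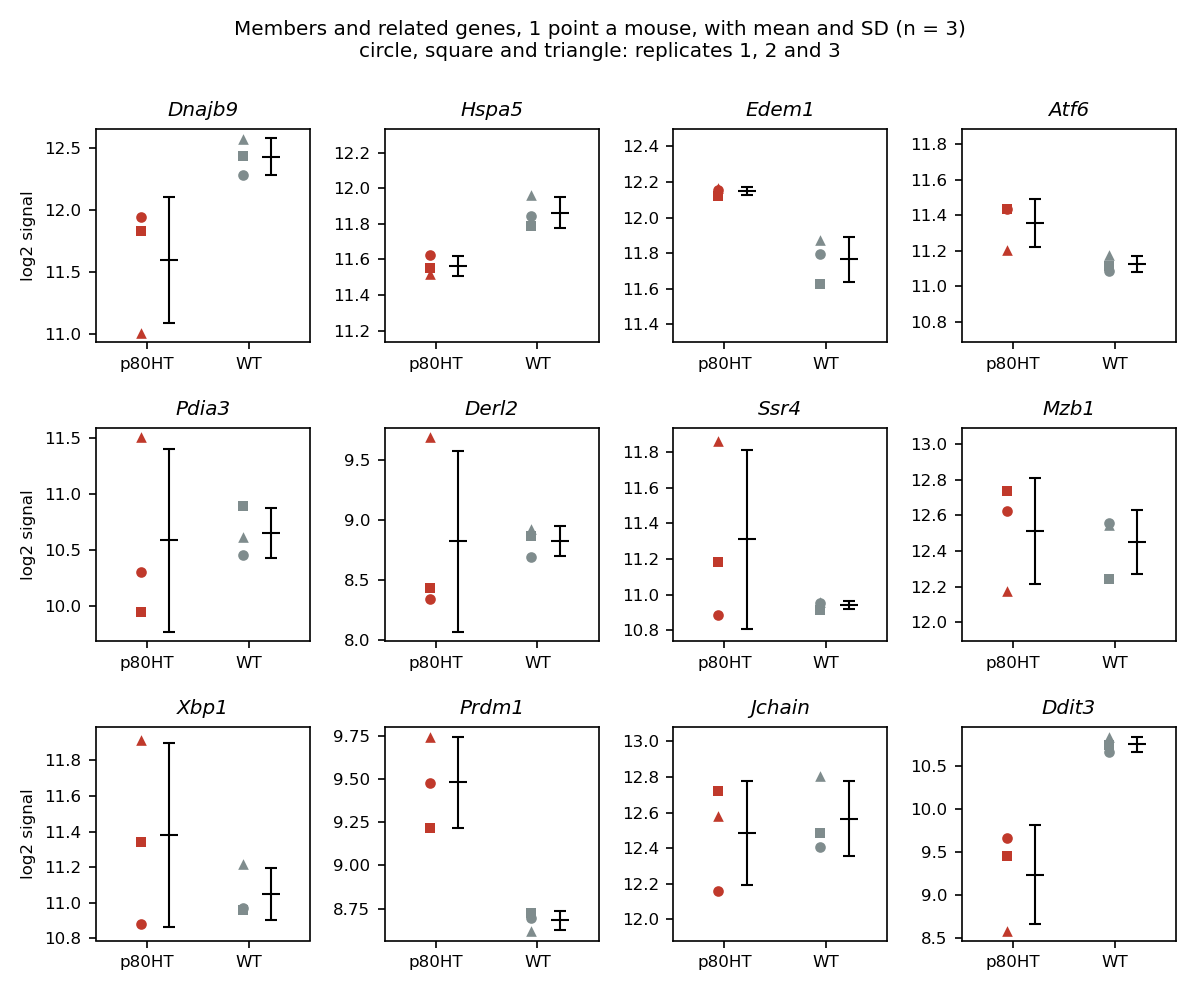
Log2 signal (y axis) of 8 ER genes and 4 related genes in p80HT and WT B cells, 1 point per mouse, with the mean and SD beside the points (n = 3 each); panels have their own y ranges. Dnajb9, Hspa5, Edem1, Atf6, Prdm1 and Ddit3 do not overlap between groups, while the p80HT replicate 3 triangle lies above the other points for Pdia3, Derl2, Ssr4 and Xbp1.

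B cell markers were lower in sign for all 11 measured genes, with a median log2 fold change of -0.65 over all arrays and -0.22 on the 5 arrays, and none was called (2 called lower on the 5 arrays). Their summed signal was 25210 to 57210 in p80HT cells, with the lowest value on replicate 3, and 64240 to 73640 in WT cells. Macrophage markers had 2 of 11 called higher. Erythroid markers had 3 of 7 called higher (6 on the 5 arrays), and neutrophil markers none of 9, or 2 on the 5 arrays. Of all genes 1.22% were called higher and 0.968% lower, or 2.01% and 1.45% on the 5 arrays. Replicate 3 of p80HT, the lowest array for 48.1% of all genes, was the lowest for 8 of the 9 neutrophil markers. Their summed signal was 2287 there, against 18090 and 25460 on the other p80HT arrays and 5141 to 21730 on the WT arrays. Fibroblast, salivary and lacrimal gland, and pancreatic acinar markers had none called among 9, 15 and 7 genes. The gland genes Pip and Bpifa2 read 13.70 and 14.21 on p80HT replicate 3, while 7 pancreatic acinar genes had a summed signal of 1288 there, against 1219 and 1429 on the other p80HT arrays and 1117 to 1384 on the WT arrays. The part of these other cells in the ER values was not tested.

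**Figure D5:**
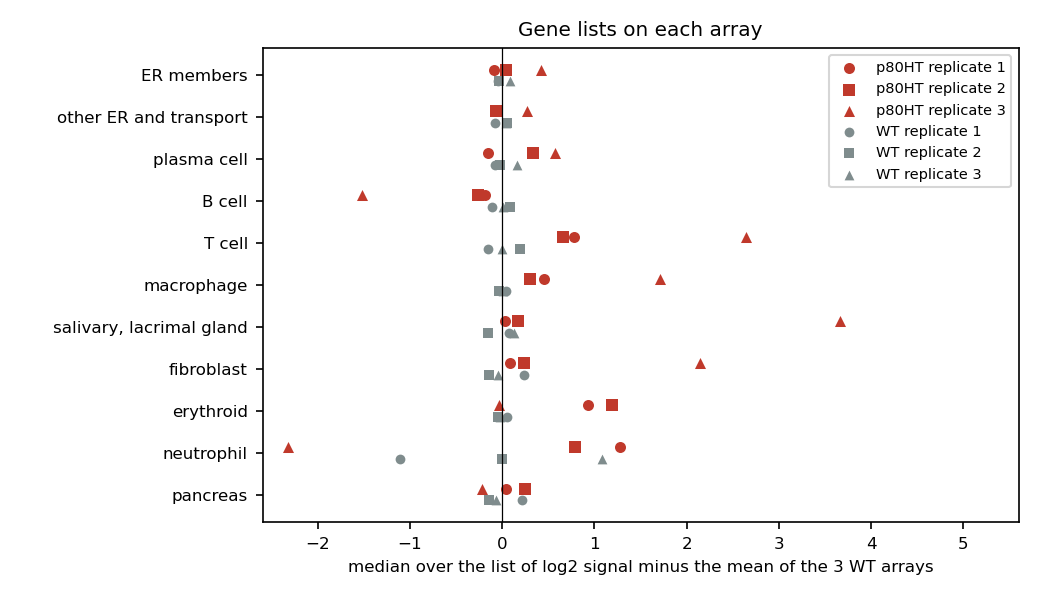
Median over each gene list of the log2 difference from the mean of the 3 WT arrays (x axis), for the ER genes, the other ER and transport genes and the cell type markers, with p80HT arrays in red above WT arrays in grey. The ER genes lie at -0.09, 0.04 and 0.42 on p80HT replicates 1, 2 and 3, and replicate 3 is the farthest right for the gland, fibroblast, T cell and macrophage markers and the farthest left for the B cell markers.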

How the data were processed

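Total RNA of splenic B cells was profiled on Affymetrix Mouse Gene 1.0 ST arrays, 3 p80HT and 3 WT. The authors normalised the arrays by RMA in Partek and deposited log2 values for 28853 probesets (versions are not given in the sources used here). The platform annotation gave 1 symbol to 21789 probesets, several to 1621 and none to 5443; 999 genes had several probesets, of which that with the highest mean was used.

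Groups and replicates came from the sample titles. All 19938 genes were fitted with limma 3.58.1 in R 4.3.3 (lmFit, eBayes; group the only term), a test checked on simulated data, and p-values were adjusted over all genes by the Benjamini-Hochberg method. Calls needed 1.5-fold and p under 0.01. Values on every array were given for members called in either fit and for the 2 of each role with the smallest p. Of the other lists, fixed regulators were described, and a planned choice of up to 3 genes of each list by p was not carried through. Further genes were picked with their values in view. The members and lists were chosen with earlier results of these data known. Alternatives left out each array and changed the normalisation, variance model, filter and probeset rule. Promoter windows came from RefSeq. Tables were handled with Python 3.11.15.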

Additional observations from a re-analysis of the deposited data

How the results depend on the processing

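The count of called genes over the whole array, 436, was 206 to 691 when 1 array was left out. It was 206 and 220 on dropping WT replicates 2 or 3 in turn, and 691 on dropping p80HT replicate 3. This count was 196 in the analysis of variance without shared variance, 900 with array weights and 11 at an adjusted p under 0.05. The weights were 4.23 on p80HT replicate 1, 6.88 on WT replicate 3 and 0.0687 on p80HT replicate 3. Centring arrays on their medians gave 183 higher and 342 lower, against 243 and 193. The count of ER genes called, 0, was 0 to 1 when 1 array was left out, and 1 without p80HT replicate 1, with an intensity trend, with array weights and with median centring, in each case Dnajb9 (log2 fold change -1.01, -0.83, -0.63 and -0.93). Array weights also put 14 of the 38 ER genes past the adjusted threshold, 2 higher and 12 lower. Under the same weights 7155 of all 19938 genes passed it. With p80HT replicate 3 left out, settings added after the data were seen gave 2 called with median centring (Dnajb9 and Pdia3, lower). Of all genes, 303 were then called higher and 499 lower. With that array left out and nothing else changed, 1 ER gene (Dnajb9) had an adjusted p under 0.05. Median centring put 0 higher and 4 lower past it, against 1360 of all genes. Quantile normalisation gave 1 higher (Atf6) and 2 lower, against 982. An intensity trend gave 2 higher (Atf6 and Edem1) and 4 lower, against 1513. The analysis of variance gave 0, as it did for all genes. The other pathway genes, 1 called, gave 2 without p80HT replicate 3, 0 in the analysis of variance and 3 with array weights. The causes were not tested. The median of the ER genes (0.07) was -0.01 without p80HT replicate 3, -0.12 with array weights and -0.03 with median centring. Sign changes of single genes were followed for 14 named ER genes only. Among these, array weights turned Txndc5, Creld2, Sec11c and Ern1 below 0 (-0.05, -0.07, -0.15 and -0.04). Sec11c was -0.01 without p80HT replicate 3, and Canx, at -0.00, changed sign under 4 settings. Outside these named genes, Hsp90b1, Dnajb11, Dnajc3 and Spcs3, above 0 in the main fit, were among the 12 lower past the adjusted threshold with array weights.

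Deviations from the group means correlated at 0.07, -0.24 and 0.07 between same-numbered mice, and not every mouse correlated best with its own number. With 3 arrays in a group these deviations are not independent, so the correlations cannot decide whether mice were paired. The sample titles do not state a pairing. A replicate block gave 567 calls over all genes and 0 ER genes.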
